A study of Mus musculus with 6 samples.

Results

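The clustered protocadherins are cell-adhesion genes arranged in 3 tandem clusters, Pcdha, Pcdhb and Pcdhg, on mouse chromosome 18. The members were chosen by name, as every symbol in the array annotation that starts with Pcdha, Pcdhb or Pcdhg followed by a digit or by a, b or c and a digit. This gave 54 of 29249 symbols on the arrays and 1176 of 474380 probes. They are 10 Pcdha, 22 Pcdhb and 22 Pcdhg genes. Windows of probes near annotated starts were placed for 52 of them and for Pcdha3 and Pcdha6, genes of the same family, so that 54 of 16169 promoter windows are described. The family was picked with earlier results of these arrays in view, which included a Dnmt1-KO difference at a Pcdhg window, so the levels and differences that follow are descriptions and carry no test.

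The study measured where Rybp, a subunit of variant Polycomb repressive complex 1, sits on promoters in mouse embryonic stem (ES) cells, by chromatin immunoprecipitation and hybridisation to promoter arrays (ChIP-chip). The groups were wild type (WT) ES cells, ES cells with a constitutive knockout of Eed (Eed-KO), a core subunit of Polycomb repressive complex 2, and ES cells with a constitutive knockout of Dnmt1 (Dnmt1-KO), the maintenance DNA methyltransferase. In every group DNA precipitated with the anti-Rybp antibody H-115 (Santa Cruz) carried Cy5, and input DNA carried Cy3, after T7 amplification of both. Cells grew on irradiated mouse embryonic fibroblasts or on gelatin, and which culture had feeders, and how many lines stand for a genotype, is not given. The promoter set spans 2 array designs, and all member probes are on the second, so each genotype has 1 array here and no replicate. The arrays measure DNA and hold no RNA values against which to check the ES cell label.

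In the Pcdha and Pcdhg clusters each variable exon has its own promoter and is spliced to constant exons that the cluster shares, while Pcdhb genes consist of single exons without constant ones. Each neuron switches on a few of these promoters by stochastic choice, and the proteins take part in self-recognition of neurites. In embryonic stem cells most of these promoters are silent, and DNA methylation, CTCF and cohesin are known to take part in promoter choice. C-type genes at the end of the Pcdha and Pcdhg clusters follow a different rule from the other variable exons and are expressed more evenly between neurons.

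The level of a probe is log2 of precipitated over input signal, set to 0 at the median of its array. A promoter's level averages 6 adjacent probes, taken as the stretch of its gene where the 3 genotypes together were highest. Each probe counted for the gene with the nearest start. Promoters at 1 or more, so 2-fold precipitated over input, are called bound. Errors of levels are the standard deviation (SD) over the 6 probes, and errors of differences are the standard error (SE) over the same probes. Both cover probe scatter and neither covers variation between cultures or hybridisations. Choosing the highest run raises levels at every promoter, so members are set beside all 16169 promoters treated in the same way.

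Member probes run from 37052943 to 37948020 on chromosome 18, in the coordinates of the array annotation, of a build not given in the sources used here. The Pcdha probes span 219.5 kb, the Pcdhb probes 260.1 kb and the Pcdhg probes 165.5 kb. The genes lie so close that 337 of the 1176 probes (28.7%) fall in range of more than 1 member, and 298 carry the name of a gene other than the one with the nearest start, often the next gene along. The starts of Pcdha3 and Pcdha6 are listed although no probe bears their name, and the probes named for Pcdha2 and Pcdha5 lie nearest other starts, so these 2 symbols have no window. Member probes were compared with each other for shared stretches of 20 bases, and 2 probes had one in common with a probe of another member. The probes were not compared with the exons of other members. Probes at different positions of like exons need share no stretch, so this count cannot show how much cross-hybridisation there was. Over all arrays, the SD of probe levels on this design was 0.42 in WT, 0.47 in Eed-KO and 0.91 in Dnmt1-KO. The Dnmt1-KO files also name another scanner model and extraction version, so genotype and scan cannot be told apart there.

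In WT cells most clustered protocadherin windows carried more Rybp signal than the median promoter, and the members past the bound level were all in the Pcdhg cluster. The median level was 0.98 over the 22 Pcdhg windows, 0.86 over the 10 Pcdha windows and 0.51 over the 22 Pcdhb windows, against 0.25 over all promoters. Bound in WT were 11 members, all of them Pcdhg, while 5.06% of all promoters were bound. Among all promoters the median Pcdhg window stood at percentile 94.6, the median Pcdha window at 91.3 and the median Pcdhb window at 75.04. The Pcdhg values depend on probes that lie in range of several members. Without those probes 40 member windows remained, 10 of them Pcdhg, 1 member was bound in WT, and the median Pcdhg window had a level of 0.17 at percentile 40.1. With 1 array per genotype none of these differences can be set against variation between cultures.

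**Figure D1:**
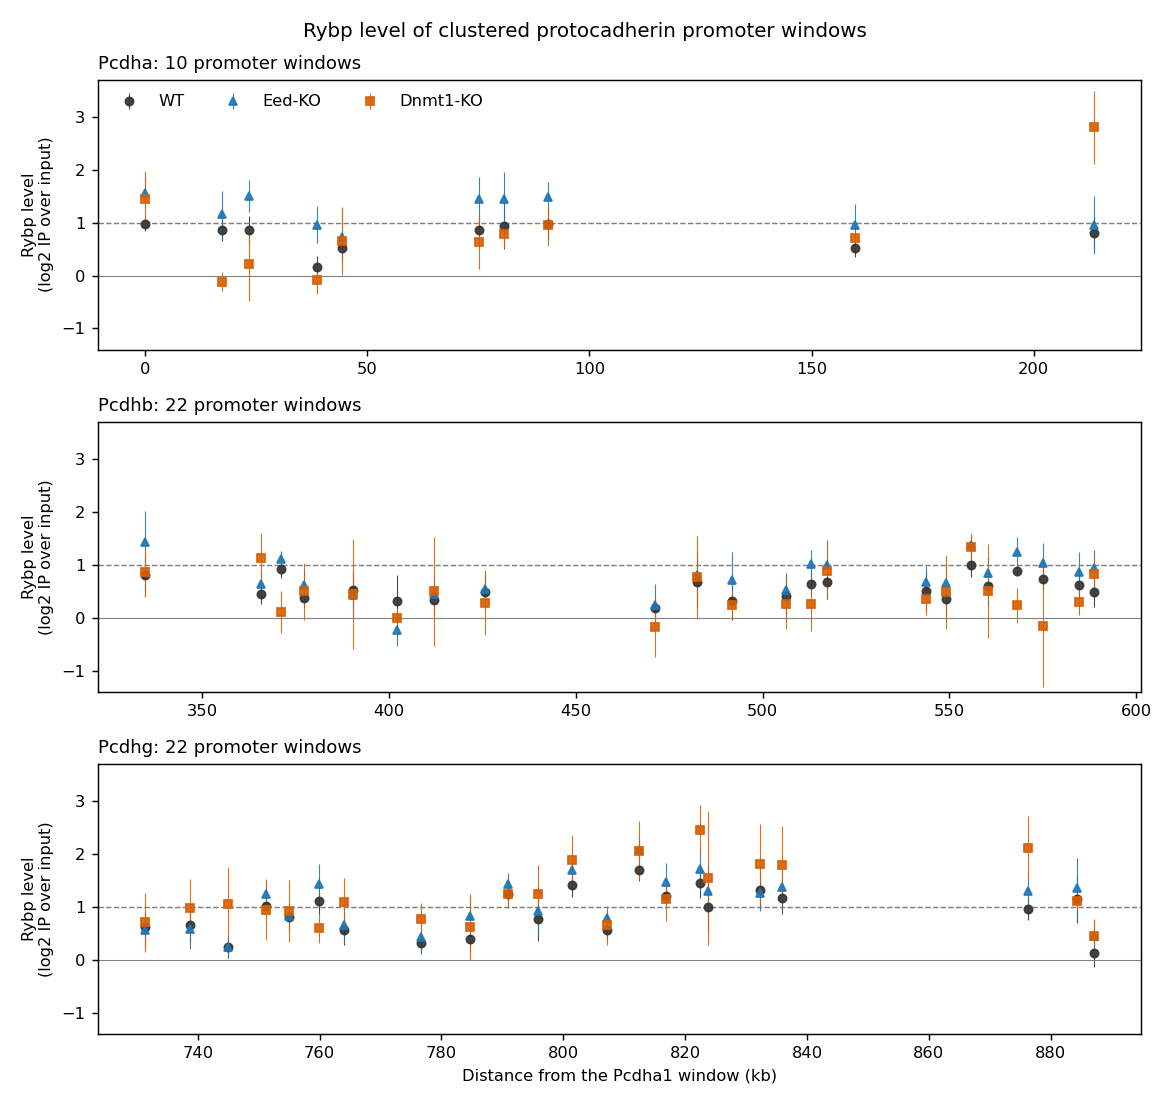
Rybp level (log2 IP over input, y axis) of each promoter window against its distance in kb from the Pcdha1 window (x axis), with a panel for each cluster; points are means over 6 probes and bars the SD over those probes. The dashed line marks the bound level of 1, which in WT was passed by 11 Pcdhg windows and by no Pcdha or Pcdhb window.

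Within the Pcdhg cluster the B-type genes, a subfamily of variable exons interspersed with the A-type genes, had the highest levels. All 7 B-type windows were bound in WT, with levels from 1.02 to 1.69 and a median of 1.32. The 12 A-type windows ranged from 0.24 to 1.20, with a median of 0.64 and 3 bound. The ranges overlap between 1.02 and 1.20, where the highest A-type window, Pcdhga10, lies above Pcdhgb1 and Pcdhgb2. Splitting the cluster by type was a choice made after the values had been seen, and it rests on assigning probes to the nearest start. In the array annotation the probes of all 7 B-type windows carry the names of A-type genes. Those of the A-type windows Pcdhga3, Pcdhga4, Pcdhga7, Pcdhga8, Pcdhga9 and Pcdhga10 carry the names of B-type genes. By the annotation names the types of these windows would thus be exchanged. When every gene listed for a probe was counted, A-type and B-type neighbours shared windows and no B-type window of its own remained. With probes in range of several members left out, 1 B-type window remained, at a WT level of -0.15. The separation also depends on choosing the highest run. With the 6 probes nearest the start, B-type windows ran from 0.46 to 1.41 in WT, with a median of 0.75. A-type windows then ran from 0.16 to 0.98, with a median of 0.55, and 3 of all 54 members were bound in WT.

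The highest member in WT was Pcdhgb6, whose window lies on chromosome 18 from 37868594 to 37869558. Its level was 1.69 ± 0.21 (SD over 6 probes) in WT, 2.07 ± 0.26 in Eed-KO and 2.06 ± 0.55 in Dnmt1-KO. It stood at percentile 99.9 of all promoters in WT and at 91.6 in Dnmt1-KO. Pcdhgb7 followed with 1.45 ± 0.28 in WT, 1.71 ± 0.41 in Eed-KO and 2.45 ± 0.48 in Dnmt1-KO, and was the highest of the B-type windows in Dnmt1-KO. Pcdhgb5 had 1.41 ± 0.22, 1.69 ± 0.23 and 1.89 ± 0.46 in the same order. At these 3 windows both knockouts were above WT. The Eed-KO differences were 0.38 ± 0.08 (SE over 6 probes) at Pcdhgb6, 0.26 ± 0.08 at Pcdhgb7 and 0.28 ± 0.08 at Pcdhgb5. The Dnmt1-KO differences were 0.37 ± 0.17, 0.99 ± 0.20 and 0.48 ± 0.13.

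The remaining B-type genes were bound in WT by smaller margins. Pcdhgb8 had 1.32 ± 0.35 in WT, 1.26 ± 0.35 in Eed-KO and 1.80 ± 0.76 in Dnmt1-KO. Pcdhgb4 had 1.24 ± 0.26, 1.43 ± 0.22 and 1.24 ± 0.21 in that order, and its Eed-KO difference was 0.19 ± 0.06 (SE over 6 probes). Pcdhgb2 and Pcdhgb1, the B-type windows nearest the start of the cluster, were the 2 members bound in WT and not in Dnmt1-KO. Pcdhgb2 had 1.11 ± 0.27 in WT, 1.43 ± 0.37 in Eed-KO and 0.60 ± 0.29 in Dnmt1-KO. Pcdhgb1 had 1.02 ± 0.20, 1.24 ± 0.22 and 0.95 ± 0.58, so that its Dnmt1-KO level was just under the bound level and close to WT.

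The A-type windows bound in WT were Pcdhga10, Pcdhga12 and Pcdhga11, all in the later part of the cluster. Pcdhga10 had 1.20 ± 0.20 in WT, 1.48 ± 0.34 in Eed-KO and 1.15 ± 0.42 in Dnmt1-KO. Pcdhga12 had 1.17 ± 0.31, 1.37 ± 0.31 and 1.79 ± 0.73. Pcdhga11 had 1.01 ± 0.49, 1.30 ± 0.48 and 1.55 ± 1.27, with the widest probe scatter of the named windows in Dnmt1-KO. Its window lies upstream of its start and its centre is 1.27 kb from that of Pcdhgb7, so the 2 windows adjoin. The lowest A-type window was Pcdhga3 at 0.24 ± 0.21 in WT, 0.24 ± 0.21 in Eed-KO and 1.06 ± 0.69 in Dnmt1-KO.

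The 3 C-type Pcdhg genes differed from each other. Pcdhgc4 was bound in WT at 1.15 ± 0.44, with 1.35 ± 0.57 in Eed-KO and 1.11 ± 0.16 in Dnmt1-KO. Pcdhgc3 was just under the bound level in WT at 0.96 ± 0.22, with 1.30 ± 0.36 in Eed-KO and 2.12 ± 0.60 in Dnmt1-KO. Pcdhgc5 was the lowest member of all in WT at 0.12 ± 0.26, with 0.45 ± 0.31 in Eed-KO and 0.45 ± 0.33 in Dnmt1-KO. The order Pcdhgc4, Pcdhgc3, Pcdhgc5 thus held in WT and Eed-KO, and Pcdhgc3 led in Dnmt1-KO. This order rests on assigning probes to the nearest start. In the array annotation the probes of the Pcdhgc3 window carry the name Pcdhgc4. Those of the Pcdhgc4 window carry the names Pcdhgc4 and Pcdhgc5.

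**Figure D2:**
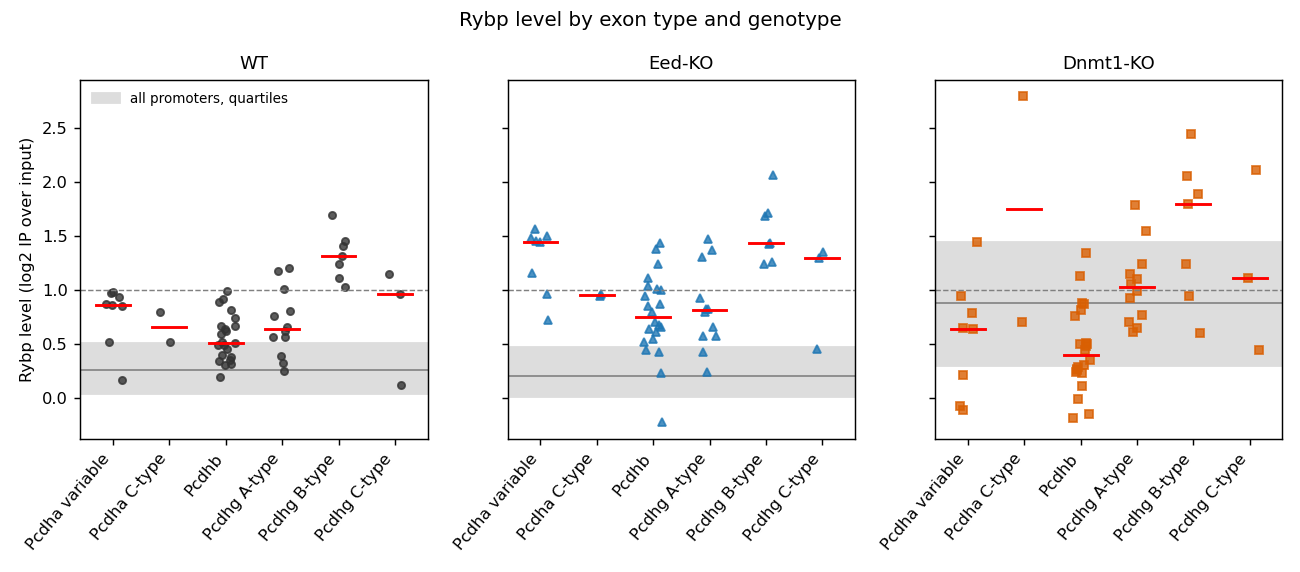
Rybp level (log2 IP over input, y axis) of member promoter windows by exon type (x axis), with a panel for each genotype; each point is a window, red lines are medians, the grey band and line are the quartiles and median of all promoters, and the dashed line is the bound level of 1. In WT the B-type Pcdhg windows lie between 1.02 and 1.69, and the grey band is higher in Dnmt1-KO, with a median of 0.88 against 0.25 in WT.

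No Pcdha window was bound in WT, though 7 of the 10 lay between 0.80 and 0.98. The 3 highest were Pcdha1, Pcdha12 and Pcdha11. Pcdha1, the first variable exon of the cluster, had 0.98 ± 0.15 in WT, 1.56 ± 0.31 in Eed-KO and 1.45 ± 0.53 in Dnmt1-KO. Pcdha12 had 0.97 ± 0.29, 1.49 ± 0.28 and 0.95 ± 0.39 in that order. Pcdha11 had 0.93 ± 0.44, 1.45 ± 0.50 and 0.78 ± 0.26. All 3 were higher in Eed-KO than in WT, while Pcdha1 alone of them was past the bound level in Dnmt1-KO.

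Pcdha10, Pcdha4 and Pcdha3 were just below these in WT. Pcdha10 had 0.86 ± 0.31 in WT, 1.44 ± 0.42 in Eed-KO and 0.63 ± 0.51 in Dnmt1-KO. Pcdha4 had 0.87 ± 0.27, 1.50 ± 0.31 and 0.21 ± 0.70. Pcdha3 had 0.85 ± 0.19, 1.15 ± 0.44 and -0.11 ± 0.19, so that its WT and Dnmt1-KO probes lie far apart. The lowest variable exon was Pcdha6, at 0.16 ± 0.21 in WT, 0.96 ± 0.35 in Eed-KO and -0.08 ± 0.27 in Dnmt1-KO. The 2 C-type Pcdha genes were alike in Eed-KO and far apart in Dnmt1-KO. Pcdhac1 had 0.51 ± 0.17 in WT, 0.95 ± 0.40 in Eed-KO and 0.70 ± 0.14 in Dnmt1-KO. Pcdhac2 had 0.80 ± 0.34, 0.96 ± 0.55 and 2.80 ± 0.69, the highest Dnmt1-KO level of any member.

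The Pcdhb cluster had the lowest levels of the 3 in WT, from 0.19 to 0.99. Its highest windows were Pcdhb17, Pcdhb3 and Pcdhb19. Pcdhb17 had 0.99 ± 0.22 in WT, 1.38 ± 0.20 in Eed-KO and 1.34 ± 0.25 in Dnmt1-KO. Pcdhb3 had 0.92 ± 0.17, 1.11 ± 0.15 and 0.11 ± 0.40. Pcdhb19 had 0.89 ± 0.11, 1.24 ± 0.27 and 0.23 ± 0.33. These 3 windows were alike in WT and Eed-KO, and in Dnmt1-KO Pcdhb17 stood more than 1 log2 unit above the other two.

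Pcdhb1, the first gene of its cluster, had 0.81 ± 0.36 in WT, 1.43 ± 0.59 in Eed-KO and 0.87 ± 0.47 in Dnmt1-KO. Pcdhb13 had 0.64 ± 0.22, 1.01 ± 0.27 and 0.26 ± 0.51. Pcdhb20 had 0.74 ± 0.20, 1.04 ± 0.37 and -0.15 ± 1.16. These are the other Pcdhb windows past the bound level in Eed-KO, each by a margin smaller than its probe SD. Pcdhb2, picked out after its values were seen, was with Pcdhb17 the other Pcdhb window bound in Dnmt1-KO, at 0.45 ± 0.20 in WT, 0.64 ± 0.25 in Eed-KO and 1.13 ± 0.47 in Dnmt1-KO. At the low end, Pcdhb9 had 0.19 ± 0.20 in WT, 0.23 ± 0.40 in Eed-KO and -0.19 ± 0.56 in Dnmt1-KO. Pcdhb6 had 0.31 ± 0.49, -0.23 ± 0.31 and -0.02 ± 0.21, and its window was the only Pcdhb window centred upstream of the start.

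Member windows lay mostly downstream of the start, on the side of the variable exon. The window centre was downstream of the annotated start in 51 of 54 members, against 62.3% of all promoters, and the median centre was 956 bp downstream in members and 209 bp in all promoters. Single probes, each counted once, gave the same picture. From 0 to 1 kb downstream the median WT level was 0.82 in Pcdha, 0.54 in Pcdhb and 0.82 in Pcdhg, against 0.22 over all probes of the design at that distance. From 1 to 2 kb downstream it was 0.62, 0.69 and 0.65 in the clusters and 0.02 over all probes. Within 1 kb upstream of the start the clusters had 0.28, 0.12 and 0.23, close to 0.14 over all probes. At a level of at least 1 in WT were 26.1% of member probes from 1 to 2 kb downstream, against 3.0% of all probes at that distance. Within 1 kb upstream it was 1.73% of member probes, below the 4.42% of all probes there. Over all distances, 9.36% of the member probes were at that level in WT, against 2.51% of all probes of the design. The share was 19.4% in Eed-KO, against 3.3%, and 16.9% in Dnmt1-KO, against 14.6%. The variable exons of these genes are long single coding exons that begin near the annotated start.

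**Figure D3:**
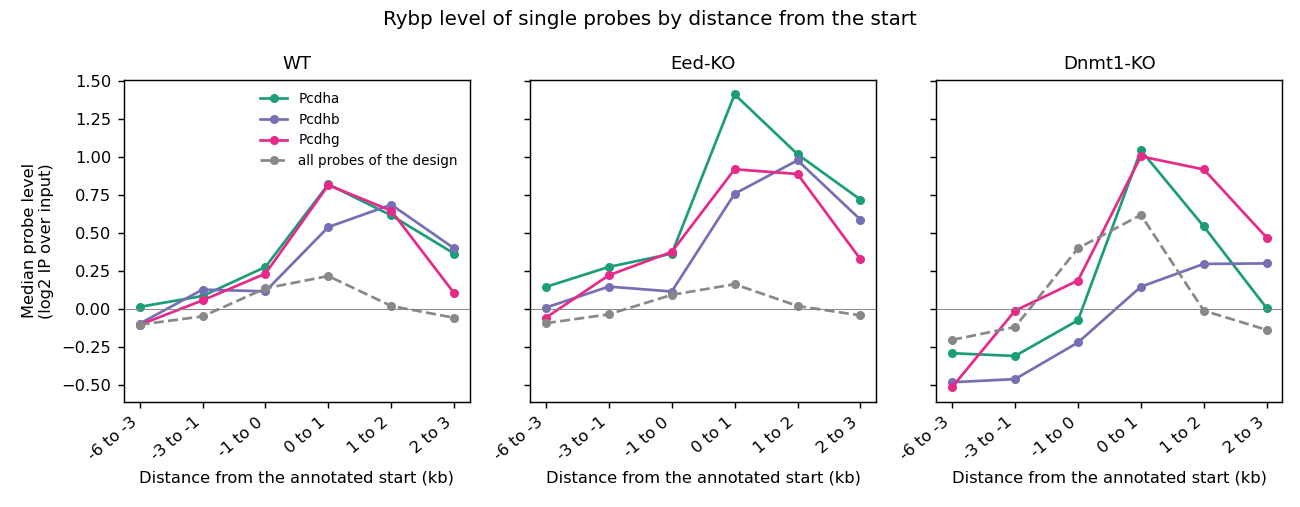
Median level of single probes (log2 IP over input, y axis) in bins of distance from the annotated start in kb (x axis, negative is upstream), with a panel for each genotype and a line for each cluster and for all probes of the array design. In WT the clusters peak at 0 to 2 kb downstream, where all probes are at 0.22 and 0.02.

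Member probes with more CpG had higher levels, as did probes over the whole design. The median WT level of member probes was 0.16 without a CpG, 0.32 with 1, 0.54 with 2 and 0.81 with 3 or more. Over all probes of the design it was -0.07, 0.03, 0.19 and 0.38 in that order, so member probes were higher in each class. Member windows were not richer in CpG than others, with a median of 2.12 per 100 bases against 2.40 over all promoters. The Pcdha windows had 3.27, the Pcdhg windows 2.12 and the Pcdhb windows 1.53. The probes of a class share their array, and several probes come from the same gene, so these medians are descriptions.

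Loss of Eed was compared with WT to see whether Rybp signal at these promoters depends on Polycomb repressive complex 2. Levels in Eed-KO were above WT at 48 of 54 members, against 40.6% of all promoters, and the median difference was 0.25 over the members and -0.04 over all promoters. The Pcdha cluster had the largest median difference, at 0.52, with all 10 windows above WT. The median was 0.24 in Pcdhb, with 20 of 22 above WT, and 0.21 in Pcdhg, with 18 of 22 above WT. At 26 members all 6 probes of the window were above WT, as at 599 of all 16169 promoters. At 1 member, Pcdhb6, all were below, as at 1290 of all promoters. The Eed-KO and Dnmt1-KO comparisons share the WT array, so a WT value that is low or high by chance moves both.

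In Eed-KO 24 members were bound, against 5.66% of all promoters. All 11 members bound in WT were among them, and of all 818 promoters bound in WT 627 were bound in Eed-KO. The 13 others were 6 Pcdha genes (Pcdha1, Pcdha3, Pcdha4, Pcdha10, Pcdha11 and Pcdha12), 6 Pcdhb genes (Pcdhb1, Pcdhb3, Pcdhb13, Pcdhb17, Pcdhb19 and Pcdhb20) and Pcdhgc3. Among all promoters 288 were bound in Eed-KO and not in WT. The WT levels of the 13 were between 0.64 and 0.99, and their Eed-KO differences ran from 0.19 at Pcdhb3 to 0.64 at Pcdha4. By the 2-fold rule, a difference of at least 1 in size where either genotype is bound, 0 members were higher and 0 lower in Eed-KO, against 0.0904% and 0.0% of all such promoters.

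The largest Eed-KO differences were at Pcdha6, with 0.80 ± 0.12 (SE over 6 probes), Pcdha4 with 0.64 ± 0.07 and Pcdhb1 with 0.62 ± 0.11. All 6 probes were above WT at each of them. The lowest were at Pcdhb6, with -0.53 ± 0.27, Pcdhb5 with -0.09 ± 0.05 and Pcdhga2 with -0.08 ± 0.17. The Pcdhb6 difference was -0.20 with normexp background correction and -0.0067 with runs of 4 probes, and its window was lost when dim input probes were left out. The Pcdhga2 difference lies within its probe scatter, and its sign turned with normexp (0.16). Among the B-type windows the differences ran from -0.05 ± 0.07 at Pcdhgb8 to 0.38 ± 0.08 at Pcdhgb6. Over the 10 Pcdha windows they ran from 0.16 ± 0.19 at Pcdhac2, with 2 of 6 probes above WT, to 0.80 at Pcdha6.

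**Figure D4:**
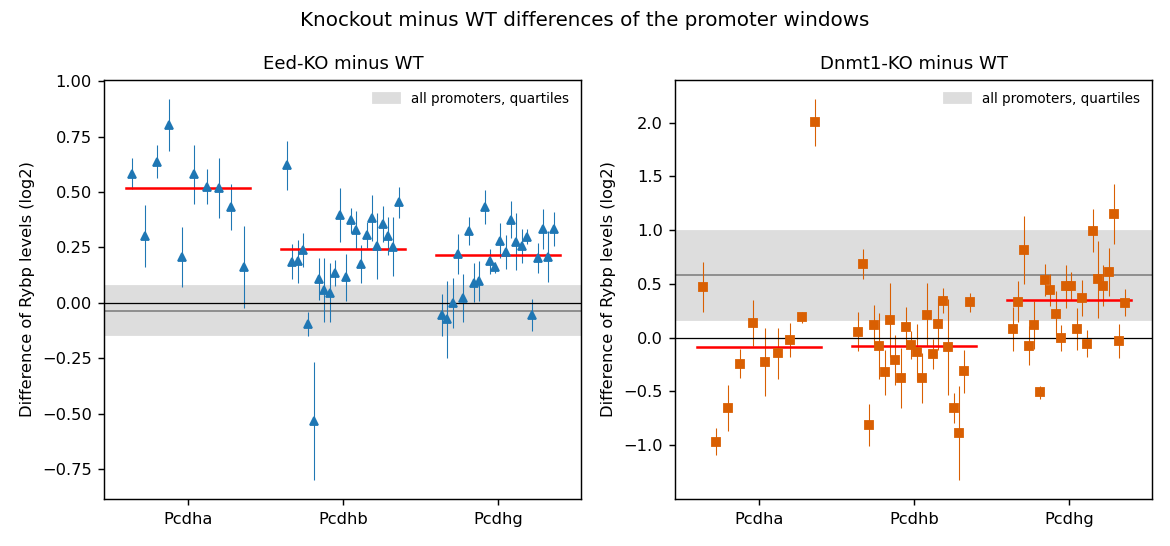
Difference of Rybp levels from WT (log2, y axis) of each member window by cluster (x axis, windows in chromosome order within a cluster), for Eed-KO and for Dnmt1-KO; bars are the SE over 6 probes, red lines are cluster medians, and the grey band and line are the quartiles and median of all promoters. All 10 Pcdha windows are above 0 in Eed-KO, and Pcdhac2 stands apart at 2.00 in Dnmt1-KO. The 2 panels have different y scales.

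Both channels were also read separately on the member probes. Input signal in Eed-KO differed from WT by a median of 0.03 in Pcdha, 0.04 in Pcdhb and -0.14 in Pcdhg on the log2 scale. Precipitated signal differed by 0.28, 0.18 and 0.03. In Pcdha and Pcdhb the higher ratio in Eed-KO thus came with a higher precipitated signal and nearly equal input. In Pcdhg it came with a lower input and nearly equal precipitated signal. The part of the input difference in the Pcdhg result was not tested.

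Loss of Dnmt1 was compared with WT to see how Rybp signal stands where DNA methylation is not maintained. Promoter windows were mostly higher in Dnmt1-KO, and the clustered protocadherins were divided. Levels were above WT at 30 of 54 members, against 83.0% of all promoters, and the median difference was 0.09 over the members and 0.58 over all promoters. The median was -0.08 in Pcdha, -0.08 in Pcdhb and 0.35 in Pcdhg. These sizes changed with the scaling of the arrays and with the choice of windows. With the 3 arrays set to 1 spread the medians were -0.57, -0.45 and -0.49, and 3 of 54 members were above WT against 57.4% of all promoters. Over all probes of a gene 21 of 54 members were above WT against 58.8% of all promoters, whose median difference was 0.08. In Dnmt1-KO 17 members were bound, 2 Pcdha, 2 Pcdhb and 13 Pcdhg, against 44.3% of all promoters. Of these, 9 members, all Pcdhg, were bound in each of the 3 genotypes, as were 611 of all promoters. Of the 24 members bound in Eed-KO 12 were not bound in Dnmt1-KO, as were 43 of all 915 promoters bound in Eed-KO. The standing of the members against all promoters changed with the GC trend removed from each array. Then 17 of 54 members were bound in Dnmt1-KO, against 29.4% of all promoters. Their median Dnmt1-KO level was 0.74 against 0.62 over all promoters, where without this step it was 0.73 against 0.88.

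Because the Dnmt1-KO array has a wider spread, ranks among all promoters of the same array were compared too. The median member stood at percentile 84.4 in WT, 93.5 in Eed-KO and 43.3 in Dnmt1-KO. The median Pcdha window went from 91.3 in WT to 40.7 in Dnmt1-KO, the median Pcdhb window from 75.04 to 28.7 and the median Pcdhg window from 94.6 to 60.7. The B-type Pcdhg windows had the highest median of the exon types in both, with a median at 86.1 in Dnmt1-KO against 98.8 in WT. Pcdhb3 was at 93.1 in WT and 18.8 in Dnmt1-KO. A rank depends less on the spread of an array, though the choice of windows does: with the arrays set to 1 spread the medians in Dnmt1-KO were at 42.6 in Pcdha, 27.4 in Pcdhb and 64.5 in Pcdhg.

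In Dnmt1-KO 2 of the 19 members bound in WT or Dnmt1-KO were higher than WT by the 2-fold rule. Among all such promoters the share was 53.6%. None of the members was lower, against 0.0417%. The 2 higher members, Pcdhac2 and Pcdhgc3, are C-type genes that were bound in Dnmt1-KO and not in WT. The other C-type windows, Pcdhac1, Pcdhgc4 and Pcdhgc5, differed by only 0.19, -0.03 and 0.33. Pcdhac2 differed by 2.00 ± 0.22 and Pcdhgc3 by 1.15 ± 0.28, with all 6 probes above WT at each. Next was Pcdhgb7 with 0.99 ± 0.20, just under the rule. With the 3 arrays set to 1 spread 0 members were higher and 7 lower by the rule. The share of all promoters by the rule was not computed at that setting, so these counts stand without it. The differences were then 0.47 at Pcdhac2 and 0.0066 at Pcdhgc3. Over all probes of the gene they were 0.22 and 0.38. The Pcdhac2 window is the richest in GC and CpG of all member windows, at 55.0% GC and 6.18 CpG per 100 bases, and the Pcdhgc3 window has 50.9% and 4.68. The median member window has 41.6% and 2.12. With the trend on GC removed from each array the differences were 1.44 and 0.87, and 0.25 and -0.32 once the arrays were also set to 1 spread.

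The lowest Dnmt1-KO differences were at Pcdha3, with -0.97 ± 0.12, Pcdhb20 with -0.89 ± 0.44 and Pcdhb3 with -0.81 ± 0.20. All 6 probes were below WT at Pcdha3 and Pcdhb3, and 5 of 6 at Pcdhb20. All 6 were also below WT at Pcdhb19, with -0.66 ± 0.14, and at Pcdhgb2, with -0.51 ± 0.06. Pcdha4 followed with -0.66 ± 0.21. The probes of the Pcdhgb2 window carry the name of its neighbour Pcdhga5 in the array annotation, as all B-type windows carry A-type names. The window that has its centre nearest the Pcdhga5 start differed by 0.54 ± 0.15 in the opposite direction.

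Input signal on the Dnmt1-KO array was low in Pcdha and Pcdhb and near the array median in Pcdhg. Relative to that median it was -1.29, -1.65 and -0.05 on the log2 scale. Input differed from WT by a median of -1.06 in Pcdha, -1.49 in Pcdhb and -0.28 in Pcdhg. Precipitated signal differed by -1.36, -1.82 and -0.24. The Dnmt1-KO input difference followed probe GC content over the whole design (r = 0.67 over 236963 probes of 1 array pair), and member probes have a median GC content of 38.3% against 40.4% in the design. With the GC trend removed from the input difference, the members were still below, by a median of -0.26 in Pcdha, -0.43 in Pcdhb and -0.12 in Pcdhg. Input was well above background at 99.7% of member probes in WT, at every one in Eed-KO and at 76.0% in Dnmt1-KO, against 99.9%, 99.9% and 85.8% of all probes of the design. In Dnmt1-KO the threshold multiplier in the file headers is 13 and not 2.6. Leaving out probes that were dim on any of the arrays kept 50 member windows, with 26 above WT in Dnmt1-KO against 82.5% of all promoters. The median member level in Dnmt1-KO was then 0.70, and 0.73 with all probes.

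Protocadherins outside the clusters, which are single genes with similar extracellular domains, were set beside the members. Of 12 listed, 8 had a window and 6 were bound in WT, against 5.06% of all promoters. Their median level was 1.20 in WT, 1.46 in Eed-KO and 2.33 in Dnmt1-KO. Over all promoters it was 0.25, 0.20 and 0.88. The highest in WT were Pcdh10 with 1.42 ± 0.28 and Pcdh7 with 1.34 ± 0.47, and the lowest Pcdh12 with 0.01 ± 0.18 and Pcdh20 with 0.39 ± 0.25. In Eed-KO 7 of the 8 were above WT, against 40.6% of all promoters, with a median difference of 0.38 against -0.04. In Dnmt1-KO 7 of the 8 were above WT, against 83.0% of all promoters, with a median difference of 1.44 against 0.58. So the members and the single protocadherin genes were both mostly above WT in Eed-KO, and their median differences in Dnmt1-KO were 0.09 and 1.44. Pcdh11x, Pcdh15, Pcdh19 and Pcdh9 were not analysed here.

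Other genes on the same stretch of chromosome 18, inside the span of the members or within 500 kb of it, had lower levels. The 27 neighbours, which include the single protocadherin genes Pcdh1 and Pcdh12, had median levels of 0.11 in WT, 0.15 in Eed-KO and 0.54 in Dnmt1-KO. Over all promoters the medians were 0.25, 0.20 and 0.88. Bound in WT were Pcdh1 with 1.21 ± 0.17 and the monocyte receptor gene Cd14 with 1.15 ± 0.27. This is 7.41% of the neighbours, near the 5.06% of all promoters. The lowest were Slc35a4 with -0.28 ± 0.21 and the histone deacetylase gene Hdac3 with -0.26 ± 0.23. Taf7, a general transcription factor gene that lies between the Pcdhb and Pcdhg clusters, had 0.04 ± 0.19 in WT, -0.16 ± 0.20 in Eed-KO and 0.44 ± 0.44 in Dnmt1-KO, unlike the windows on either side of it in WT. In Eed-KO 17 of the 27 were above WT, against 40.6% of all promoters, with a median difference of 0.09 against -0.04. In Dnmt1-KO 24 of the 27 were above WT, against 83.0% of all promoters, with a median of 0.44 against 0.58.

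Genes that encode known regulators of the clusters, among them the insulator protein Ctcf, cohesin subunits and DNA methyltransferases, were mostly near the level of all promoters. Of 15 listed, 11 had a window and none was bound in WT, where 5.06% of all promoters were bound. Their median levels were 0.37 in WT, 0.31 in Eed-KO and 0.95 in Dnmt1-KO, against 0.25, 0.20 and 0.88 over all promoters. The highest in WT were Dnmt3b with 0.91 ± 0.38 and the cohesin subunit gene Stag1 with 0.58 ± 0.22. The lowest were Smchd1, a chromatin protein of the inactive X chromosome, with -0.14 ± 0.36 and Dnmt1 with 0.03 ± 0.24. The Dnmt1 window lies in range of the start and does not check the knockout. Dnmt3a, Nipbl, Setdb1 and Stag2 were not analysed here.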

How the data were processed

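Rybp ChIP-chip arrays of 3 genotypes and 2 designs were read, and member probes are on the second design. Per the file headers, the deposited values are intensities from Agilent Feature Extraction, with background subtracted, detrended and normalised for dye (9.5.3.1 for WT and Eed-KO, 10.1.1.1 for Dnmt1-KO), with Cy5 as precipitated and Cy3 as input DNA. The authors' deposited value table holds log10 ratios and served as an alternative. Log2 ratios were computed from the deposited intensities and centred on each array's median. Probes flagged as outliers were left out, and saturated ones kept. A probe counted for the gene with the nearest annotated start, from 6 kb upstream to 3 kb downstream, and windows of 6 probes spanned at most 3 kb. RefSeq names (assembly GRCm38.p6, names only) matched 17537 of 18247 accessions. The A-, B- and C-types follow the symbols. The members and lists were chosen with earlier results of these data known, and nearest-start assignment was chosen after seeing the data. The members named in full were the highest and lowest by WT level in each cluster, the extreme differences, those bound in WT or Eed-KO, and the C-type genes. Other genes are named as examples chosen after their values were seen. Python 3.11.15, pandas 2.3.3, statsmodels 0.14.6 and limma 3.58.1 (normexp) were used, and window calling was tested on simulated data. There is 1 array per genotype, which limits the precision, and no p-values are given.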

Additional observations from a re-analysis of the deposited data

How the results depend on the processing

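Alternatives were normexp, the authors' value table, mode centring, scaling, GC correction, other bound levels and windows, and filters on dim, outlier, saturated and shared probes, and 1 added after seeing the data, counting every listed gene. With 1 array per genotype a value counts as moved when it shifts by at least the SD over the members, or a count by over 1.5 times. No paired analysis was possible because there are no replicates. Of the cluster medians and counts, 292 values stayed within these bounds, 48 moved and 4 median differences turned sign. A turn of sign was checked for differences only and not for levels. The median Dnmt1-KO level of Pcdha went from 0.675 to -0.0122 over all probes of a gene and counts as within the bounds. Within the bounds some differences still shifted by several-fold. For the alternatives, shares of all promoters by the 2-fold rule were not computed. The counts of members higher or lower given below therefore stand without them. The members' median percentile of the Eed-KO difference stayed between 84.4 and 96.6, and of the Dnmt1-KO difference between 6.88 and 29.9.

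With the arrays set to 1 spread, the median WT level was 1.15 in Pcdha and 0.80 in Pcdhb, 27 members were bound in WT (13.1% of all promoters) and 7 in Dnmt1-KO (15.9%), and 0 were higher and 7 lower in Dnmt1-KO. The median Dnmt1-KO differences were -0.57 in Pcdha, -0.45 in Pcdhb and -0.49 in Pcdhg, and that of Pcdhgb7 was -0.45. With the GC trend removed as well, the WT Pcdhb median was 0.84, 27 members were bound in WT (10.8%) and 6 in Dnmt1-KO (8.81%), 0 were higher and 5 lower, the median Pcdhg differences were -0.46 in Dnmt1-KO and 0.07 in Eed-KO, that of Pcdhgb7 -0.25 and that of Pcdhgc3 -0.32. At a bound level of 1.5-fold, 33, 43 and 34 members were bound (WT, Eed-KO, Dnmt1-KO), against 20.2%, 18.2% and 63.5% of all promoters, and at 3-fold 1, 3 and 7, against 0.266%, 0.693% and 20.1%. Runs of 4 probes gave 27 bound (52.2% of all) and 4 higher in Dnmt1-KO and a median Pcdhb difference of 0.0948.

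Over all probes of a gene, WT and Eed-KO medians were 0.41 and 0.75 in Pcdha, 0.26 and 0.35 in Pcdhb and 0.40 and 0.55 in Pcdhg. The Eed-KO difference was 0.27 in Pcdha, the Dnmt1-KO median -0.0875 in Pcdhb with a difference of -0.36, 2, 5 and 6 members were bound (0.123%, 0.325% and 3.78% of all), 0 were higher in Dnmt1-KO and the Eed-KO difference of Pcdhga2 was 0.0006. With the 6 probes nearest the start, WT and Eed-KO medians were 0.44 and 0.87 in Pcdha (difference 0.26) and 0.27 and 0.31 in Pcdhb (Dnmt1-KO -0.0284), the Eed-KO median was 0.64 in Pcdhg, and 3, 10 and 11 members were bound (1.89%, 2.01% and 35.3% of all). Without probes in range of several members, which kept 40 windows, the Pcdhg medians were 0.17 in WT and 0.32 in Eed-KO, the Pcdha Dnmt1-KO difference was 0.0569, and 1, 12 and 7 members were bound (5.0%, 5.59% and 44.3% of all). Windows chosen on WT and Eed-KO gave 1 member higher in Dnmt1-KO, and counting every listed gene gave 11 bound in Dnmt1-KO (44.9% of all). Normexp gave a Pcdhga2 Eed-KO difference of 0.16. The cause of these shifts was not tested.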
